A study of Mus musculus with 11 samples.

Results

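Aminoacyl-tRNA synthetases join each amino acid to its transfer RNA, and every cell needs them to make protein. A list of 35 synthetase genes was examined in sorted mouse beta cells, 19 of them cytosolic, with *Wars* among these, and 16 mitochondrial. They were taken by symbol, and each matched a single Ensembl gene row among the 55487 rows of the files. All 35 passed the filter on low counts. The list holds no cytosolic synthetase for methionine, so statements here are about the listed members and not the whole family. The question was whether *Wars*, the tryptophanyl-tRNA synthetase, changed alone or with the other members when beta cells met IFNγ.

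Islets came from 12-week-old male C57BL/6JRj mice and were kept for 20 h either in medium alone or with IFNγ at 50 pg/mL. Beta cells were then sorted by surface markers (EpCam-positive, CD24-low, CD71-positive). Control cells (4 libraries, replicates 1 to 4) came from the untreated islets. PD-L1high cells (4 libraries, replicates 1 to 4) and PD-L1low cells (3 libraries, replicates 2 to 4) were the treated beta cells with much or little PD-L1 on their surface, so these groups share the treatment and differ in the sort. PD-L1 is encoded by *Cd274*, and its own rise between the gates belongs to the sort. No replicate 1 library of PD-L1low cells was analysed here. The study describes its replicates as independent biological samples, but the sources used here do not say how many mice went into a library.

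The synthetases fall into class I and class II, which have unrelated catalytic folds. Most cytosolic and mitochondrial enzymes are made from separate genes, while *Kars* and *Gars* are known to serve both compartments through alternative products. Several cytosolic enzymes sit together in a multisynthetase complex held by scaffold proteins. *Wars* stands outside that complex, and is known from many cell types as a gene that IFNγ switches on. Tryptophan is also the substrate of *Ido1*, an enzyme that IFNγ induces in immune cells. Amino acid shortage is known to raise many synthetase genes through the transcription factor ATF4.

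The libraries held 10422018 to 15810769 counts assigned to genes. The 8 beta cell markers summed to 60909.5 to 93673 CPM (counts scaled to the library total) and did not separate the groups, and the markers of lymphoid and erythroid cells were at 0 in all 11 libraries. Markers of other islet cells were lower in PD-L1low than in PD-L1high cells, but only those of PP cells also lay apart from control. The alpha cell list of 6 genes summed to 323 to 1389 CPM in control cells, 350 to 354 in PD-L1low cells and 561 to 1485 in PD-L1high cells. The 2 PP cell genes, *Ppy* and *Pyy*, summed to 150 to 382, 26.8 to 33.5 and 233 to 562 CPM. The delta cell list of 3 genes summed to 6.70 to 33.2, 3.51 to 9.11 and 11.4 to 39.4 CPM, and *Hhex* among them was at most at 0.450 CPM in any library. The duct list of 4 genes summed to 401 to 545, 505 to 553 and 370 to 785 CPM in the same order of groups. The macrophage list of 5 genes summed to at most 4.76 CPM in any library. The part of all these cells in the results below was not tested. In sorted bulk samples a change in the share of a cell type and a change of RNA per cell cannot be told apart. *Wars* itself was carried by 1310 to 3199 counts per library, and the other cytosolic synthetases by at least 139. The mitochondrial members ran from 12 counts of *Sars2* in PD-L1low replicate 4 up to *Lars2*, which had the most counts of the 35 (4372 to 17269).

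*Wars* was higher in PD-L1high cells than in control cells and PD-L1low cells. It read 102, 143, 134 and 158 CPM in control replicates 1 to 4. PD-L1low replicates 2 to 4 gave 134, 142 and 124 CPM. PD-L1high replicates 1 to 4 gave 206, 245, 214 and 198 CPM. All 4 PD-L1high libraries lay above all 7 others, while the PD-L1low libraries lay inside the control range. The mean was 216 ± 20.7 CPM (SD, n = 4) in PD-L1high cells, 134 ± 23.8 (SD, n = 4) in control cells and 133 ± 9.20 (SD, n = 3) in PD-L1low cells.

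Against control, *Wars* rose in PD-L1high cells by 0.70 on the log2 scale (SE 0.116, 95% interval 0.45 to 0.95), or 1.62-fold, with an adjusted p of 0.00443 in edgeR's quasi-likelihood test. It was higher in 4 of 4 replicate numbers, by 1.02, 0.78, 0.68 and 0.33 in log2 CPM for replicates 1 to 4. The rise passed the test under each of the 19 other settings, with log2 fold changes of 0.59 to 0.81 and adjusted p of 1.8e-06 to 0.0489. The direct test of PD-L1high against PD-L1low cells gave 0.77 (SE 0.132, 95% interval 0.49 to 1.05), or 1.70-fold, with an adjusted p of 0.00819. *Wars* was higher in 3 of 3 replicate numbers there, by 0.87, 0.59 and 0.68. This call was lost without PD-L1low replicate 2 (adjusted p 0.0607), PD-L1low replicate 4 (0.0970) or PD-L1high replicate 2 (0.0936), where the log2 fold change was still 0.72 to 0.74, and over all 19 settings the adjusted p ran from 5.4e-06 to 0.0970.

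PD-L1low cells came from the same treated islets, but the paper proposes that IFNγ does not reach all cells of an islet alike. In PD-L1low cells *Wars* did not pass the test against control, with a log2 fold change of -0.07 (95% interval -0.34 to 0.21, adjusted p 1.00). This interval leaves out a rise as large as the 1.62-fold of PD-L1high cells. The 2 comparisons against control share their control libraries. For scale, 12 genes known to answer IFNγ, *Cd274* among them, were all called higher in PD-L1high cells against control by edgeR, DESeq2 and limma-voom. These genes were chosen with earlier results of these data known, so they give a scale and no test. In PD-L1low cells edgeR called 6 of them, DESeq2 11 and limma-voom 8, and 11 had an unadjusted p under 0.05 in edgeR. In PD-L1high and PD-L1low cells this list had median log2 fold changes of 3.42 and 1.45 against control. The change of *Wars* was smaller than that of each of these 12 genes in PD-L1high cells, the least of which was 1.799 on the log2 scale for *Irf1*, a transcription factor of the interferon response.

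**Figure D1:**
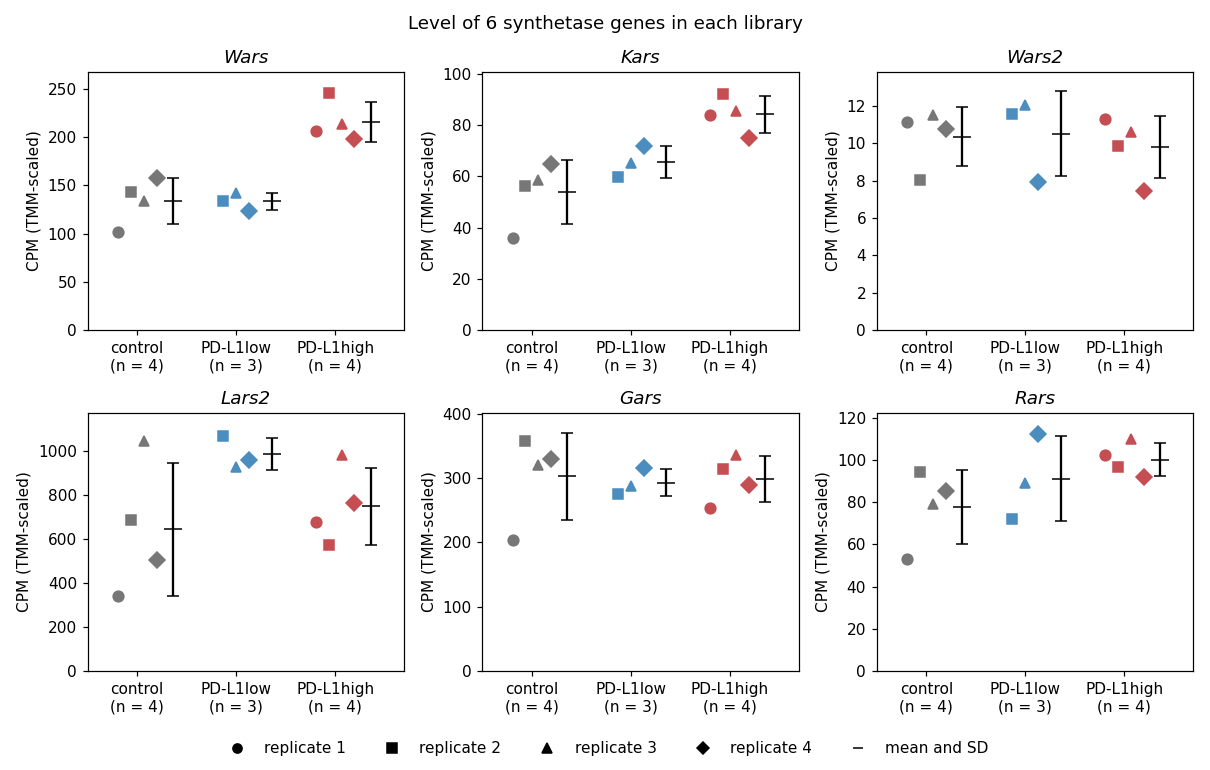
Level of 6 synthetase genes in each library, in TMM-scaled CPM on axes that start at 0. Points are libraries, their shape gives the replicate number, and the bar gives the group's mean and SD. PD-L1high cells lie above all other libraries for Wars (198 to 245 CPM) and Kars (74.98 to 92.2), and the groups overlap for Wars2, Lars2, Gars and Rars.

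*Kars*, the lysyl-tRNA synthetase and a member of the multisynthetase complex, was the only other listed synthetase called in any comparison. Its control libraries held 35.8, 56.1, 58.7 and 64.7 CPM (replicates 1 to 4). Its PD-L1low libraries held 59.5, 65.2 and 71.8 CPM (replicates 2 to 4). Its PD-L1high libraries held 83.8, 92.2, 85.5 and 74.98 CPM (replicates 1 to 4). The PD-L1high libraries again lay above all 7 others, but only just above the highest PD-L1low library, and control replicate 1 stood well below the rest.

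*Kars* rose in PD-L1high cells against control by 0.68 on the log2 scale (SE 0.141, 95% interval 0.38 to 0.98), or 1.60-fold, with an adjusted p of 0.0282 in edgeR's quasi-likelihood test, and was higher in 4 of 4 replicate numbers. The call was kept under 10 of 19 other settings, with adjusted p from 7.9e-05 to 0.198. It was lost when control replicate 1 (log2 fold change 0.50, adjusted p 0.164), control replicate 2 (0.71, 0.0526), control replicate 3 (0.71, 0.104) or PD-L1low replicate 3 (0.68, 0.0597) was left out. It was also lost without PD-L1high replicate 1 (0.50, 0.181), replicate 2 (0.64, 0.198) or replicate 3 (0.71, 0.0916). The fit without the replicate block gave 0.64 with an adjusted p of 0.0827, and that of the 2 groups alone gave 0.68 with 0.0660. Between PD-L1high and PD-L1low cells *Kars* did not pass the test (log2 fold change 0.46, 95% interval 0.12 to 0.80, adjusted p 0.417), and between PD-L1low and control cells it gave 0.22 (95% interval -0.11 to 0.55, adjusted p 1.00).

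Thus 2 of the 35 synthetases were called higher and 0 lower in PD-L1high cells against control, where 0.941% of all 16252 tested genes were called higher. DESeq2 and limma-voom called the same number, and at an unadjusted p under 0.05 edgeR had 3 of 35, against 7.65% of all genes, the third being *Rars*, the arginyl-tRNA synthetase of the same complex. *Rars* measured 53.1 to 94.2 CPM in control cells, 72.1 to 112 in PD-L1low cells and 91.7 to 110 in PD-L1high cells, with a log2 fold change of 0.39 (adjusted p 0.546). Its fold change was 0.20 without control replicate 1, 0.21 without PD-L1high replicate 1 and 0.57 without control replicate 2. By levels alone, 2 of 35 members had every PD-L1high library above every control library, against 2.68% of all genes. In PD-L1high against PD-L1low cells, 1 of 35 members (*Wars*) was called higher, against 0.64% of all genes, with 1 each by DESeq2 and limma-voom and 3 at an unadjusted p under 0.05 by edgeR (*Wars*, *Kars* and *Nars*), against 8.52% of all genes. Both counts without adjustment are near their background. Every PD-L1high library lay above every PD-L1low library for 3 of 35 members, against 4.41% of all genes. All PD-L1high libraries lay below all PD-L1low libraries for 2 of 35 members (*Eprs* and *Nars2*), against 584 of 16252 genes.

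In PD-L1low against control cells, edgeR called 0 of 35 synthetases, against 0.08% of all genes called in either direction. DESeq2 and limma-voom also called 0, and 1 member, *Lars2*, had an unadjusted p under 0.05, against 2.1% of all genes. The intervals of 33 of the 35 members lay within a 2-fold change either way. Those of *Sars2* and *Lars2* reached past it.

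**Figure D2:**
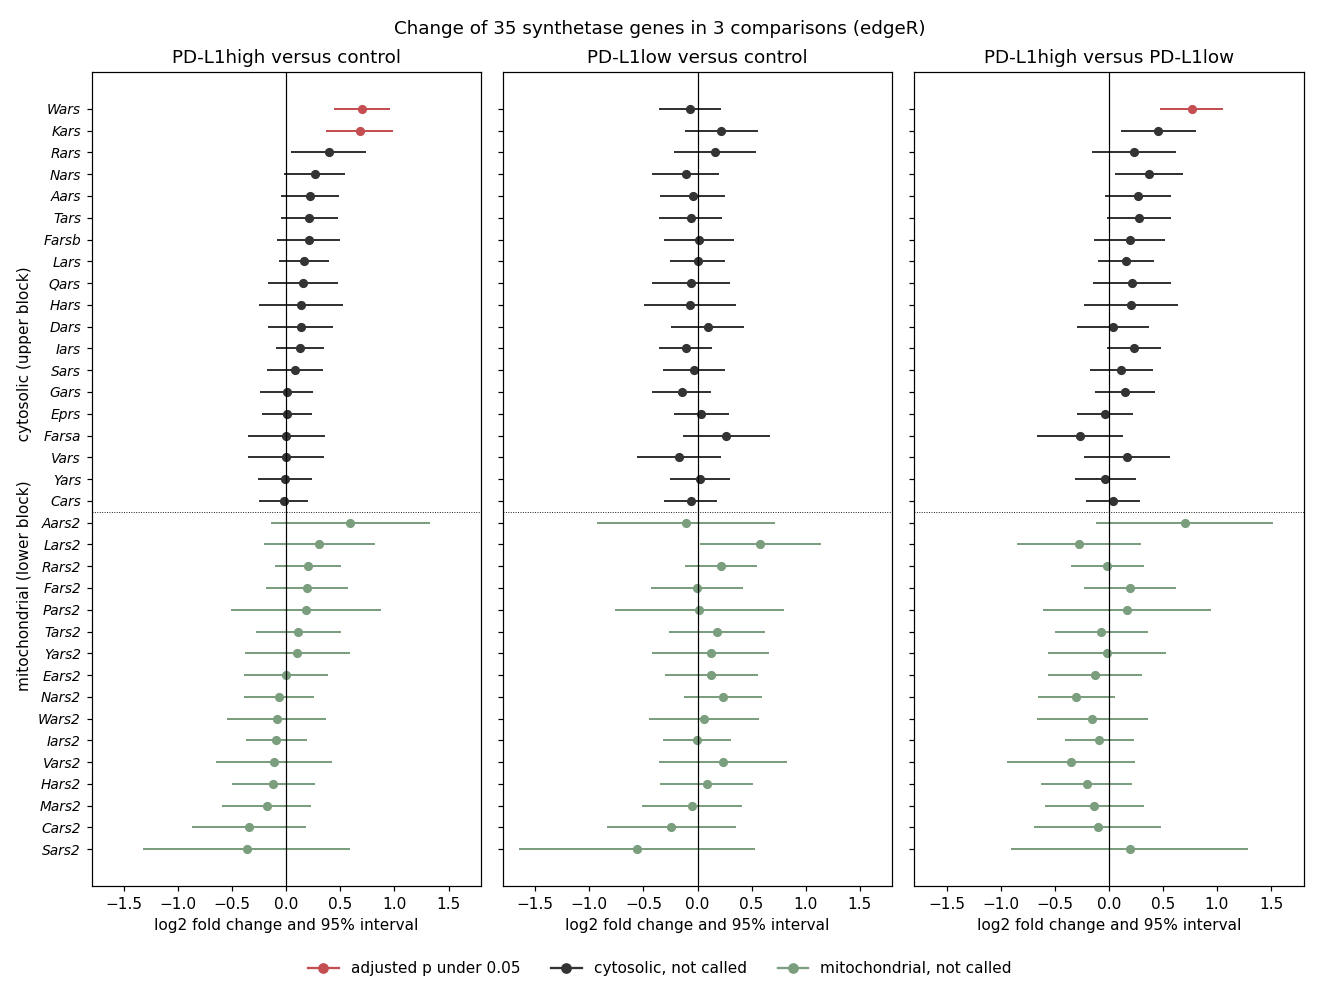
Log2 fold change (points) with its 95% interval (lines) for the 35 synthetases in the 3 comparisons, cytosolic genes above the dotted line and mitochondrial genes below it. Red marks an adjusted p under 0.05: Wars and Kars at 0.70 and 0.68 against control, and Wars at 0.77 against PD-L1low cells.

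The 18 cytosolic members other than *Wars* had a median log2 fold change of 0.13 in PD-L1high against control cells, -0.04 in PD-L1low against control and 0.18 in PD-L1high against PD-L1low. Over all tested genes these medians were -0.02, 0.00037 and -0.0042. Without *Kars* the other 17 ran from -0.03 to 0.39 against control, and the 95% interval of each lay within a 2-fold change. *Rars*, *Nars*, *Eprs*, *Aars* and *Qars* are named here after their values were seen. No test of the median was made, and whether the change of *Wars* differs from that of each other member was not tested.

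*Eprs*, grouped here with class I by its glutamate part, joins glutamate and proline to their transfer RNAs in a single protein. It had the most counts of the cytosolic members. It held 348, 473, 450 and 409 CPM in control cells, 442, 436 and 443 in PD-L1low cells and 422, 411, 418 and 423 in PD-L1high cells. Its PD-L1high libraries all lay below its PD-L1low libraries, but the gap was small, with a log2 fold change of -0.03 and an adjusted p of 0.964. *Vars*, for valine, had 24.8, 47.2, 50.7 and 53.1 CPM in control cells, 46.9, 44.4 and 34.4 in PD-L1low cells and 38.2, 39.2, 45.8 and 46.0 in PD-L1high cells. Its groups overlapped, and its log2 fold change in PD-L1low against control cells, the most negative of the cytosolic members, was -0.17 (adjusted p 1.00).

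Of class II, *Gars*, for glycine, and *Sars*, for serine, were the most abundant listed cytosolic synthetases per length. *Gars* read 204, 357, 320.1 and 330.0 CPM in control cells, 275, 287 and 316 in PD-L1low cells and 253, 315, 336 and 290.2 in PD-L1high cells. *Sars* read 137, 205, 184 and 192 CPM in control cells, 161, 204 and 185 in PD-L1low cells and 184, 189, 210.2 and 172 in PD-L1high cells. For both genes control replicate 1 was the lowest library and the groups overlapped in every comparison. The log2 fold changes against control were 0.0041 for *Gars* and 0.08 for *Sars* in PD-L1high cells (adjusted p 0.998 and 0.905).

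*Farsa* and *Farsb* encode the 2 subunits of the cytosolic phenylalanyl-tRNA synthetase. *Farsa*, the least abundant cytosolic member per length, had 18.7, 17.8, 17.2 and 14.1 CPM in control cells, 18.3, 20.6 and 20.9 in PD-L1low cells and 17.1, 14.9, 21.8 and 14.4 in PD-L1high cells. PD-L1low replicate 2 lay inside the control range and the other PD-L1low libraries above it, and the log2 fold change of 0.27 did not pass the test (adjusted p 1.00). *Nars*, for asparagine, had 203 to 237 CPM in PD-L1high cells against 168 to 203 in PD-L1low cells, with a log2 fold change of 0.37 and an adjusted p of 0.490 between them. It was the third member whose PD-L1high libraries all lay above its PD-L1low libraries, after *Wars* and *Kars*.

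The 7 listed members of the multisynthetase complex were *Dars*, *Eprs*, *Iars*, *Kars*, *Lars*, *Qars* and *Rars*. Of these, 1 was called higher in PD-L1high cells against control, where 0.941% of all genes were. At an unadjusted p under 0.05 edgeR had 2 of the 7 there, against 7.65% of all genes. In PD-L1high against PD-L1low cells it had 1, against 8.52% of all genes. In PD-L1low against control cells it had 0, against 2.1% of all genes. EdgeR, DESeq2 and limma-voom called 0 of these members in the other comparisons. Their scaffold genes *Aimp1*, *Aimp2* and *Eef1e1* gave log2 fold changes of 0.18, 0.33 and 0.43 against control in PD-L1high cells, with adjusted p of 0.827, 0.828 and 0.650 in edgeR's quasi-likelihood test. *Eef1e1* measured 14.0 to 16.2 CPM in PD-L1high cells and 9.58 to 13.3 in control cells, with no overlap between these groups. Of all tested genes, 2.68% likewise had every PD-L1high library above every control library.

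The mitochondrial synthetases, which charge the transfer RNAs of the organelle, had no gene past the adjusted test in any comparison, whether fitted with edgeR, limma-voom or DESeq2. Without adjustment, edgeR gave a p under 0.05 for 0 of 16 in PD-L1high against control, 1 in PD-L1low against control and 0 in PD-L1high against PD-L1low. Over all tested genes these shares were 7.65%, 2.1% and 8.52%. The median log2 fold changes of the mitochondrial members in the same order were -0.03, 0.07 and -0.09.

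*Wars2*, the mitochondrial counterpart of *Wars*, held 11.2, 8.02, 11.5 and 10.7 CPM in control cells. PD-L1low cells had 11.6, 12.1 and 7.93 CPM, and PD-L1high cells 11.3, 9.86, 10.6 and 7.48 CPM. The groups overlapped throughout, and the log2 fold changes were -0.09 (95% interval -0.54 to 0.36) in PD-L1high against control and -0.15 (-0.65 to 0.35) against PD-L1low cells. Both intervals end below the point estimate of *Wars* in the same comparison, and the difference between the 2 genes was not tested.

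*Lars2*, for leucine, was the most abundant of the 35 per length and the most variable in control cells. It read 339, 688, 1043 and 503 CPM in control replicates 1 to 4. It read 1069.7, 928 and 959.9 CPM in PD-L1low cells and 677, 572, 981 and 764 CPM in PD-L1high cells. Control replicate 3 matched the PD-L1low libraries while the other control libraries lay below them, and the log2 fold change of PD-L1low against control was 0.58 (SE 0.245, 95% interval 0.03 to 1.13, adjusted p 1.00). Without the filter on low counts the same difference, 0.59, passed the test (adjusted p 0.0110), and under the 18 other settings it did not.

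*Cars2*, for cysteine, had 25.6, 13.05, 21.9 and 13.3 CPM in control cells, 20.7, 17.5 and 6.81 in PD-L1low cells and 14.9, 14.0, 14.8 and 12.8 in PD-L1high cells. The spread lay within the control and PD-L1low groups, and the log2 fold changes of -0.34 and -0.24 against control did not pass the test (adjusted p 0.779 and 1.00). *Mars2*, for methionine and the lowest of all per length, had 20.9, 13.4, 11.7 and 10.7 CPM in control cells, 11.01, 11.7 and 13.5 in PD-L1low cells and 14.0, 12.7, 11.5 and 10.5 in PD-L1high cells, with log2 fold changes of -0.18 and -0.05 against control. Here control replicate 1 was the highest library, not the lowest.

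*Vars2* held 7.14, 6.37, 12.4 and 10.7 CPM in control cells, 11.9, 7.91 and 14.4 in PD-L1low cells and 7.27, 7.71, 7.78 and 11.01 in PD-L1high cells. Its log2 fold change in PD-L1high against PD-L1low cells was -0.35 (adjusted p 0.775). *Nars2* held 30.6, 24.2, 25.5 and 21.2 CPM in control cells, 27.3, 25.8 and 33.7 in PD-L1low cells and 24.0, 24.6, 23.4 and 24.8 in PD-L1high cells. All PD-L1high libraries of *Nars2* lay below its PD-L1low libraries, and the log2 fold change of -0.30 did not pass the test (adjusted p 0.647). *Aars2*, next to *Mars2* the lowest per length, had 5.82, 4.20, 7.85 and 4.03 CPM in control cells, 6.13, 5.55 and 3.86 in PD-L1low cells and 6.63, 7.55, 5.90 and 13.1 in PD-L1high cells. Its log2 fold change of 0.59 against control (adjusted p 0.740) had an interval from -0.14 to 1.32, and PD-L1high replicate 4 stood above the other libraries.

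**Figure D3:**
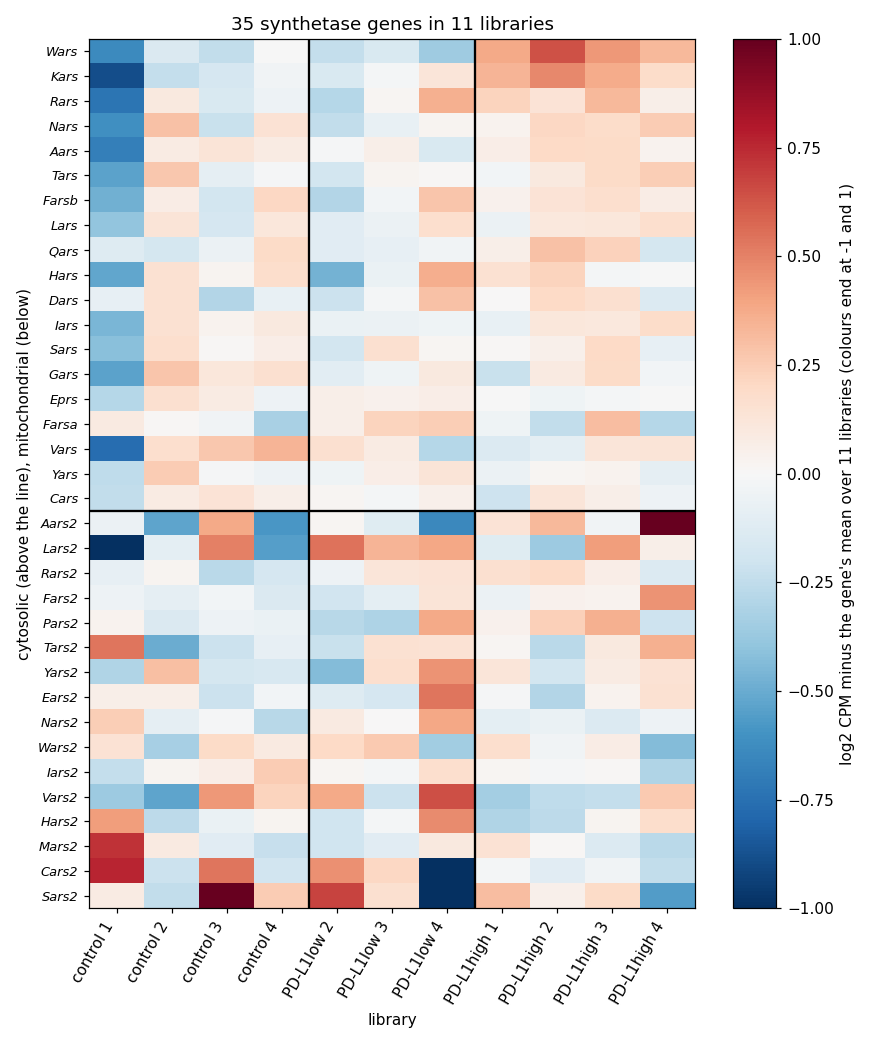
Log2 CPM of each of the 35 synthetases minus its mean over the 11 libraries, genes in rows and libraries in columns, cytosolic genes above the horizontal line. Control replicate 1 is the lowest of the 11 libraries for 16 of the 19 cytosolic genes and for 1 of the 16 mitochondrial genes, and Wars and Kars are red in all 4 PD-L1high libraries.

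Control replicate 1 stood apart in these genes. It was the lowest of all 11 libraries for 16 of 19 cytosolic synthetases (84.2%), against 20.8% of all tested genes, and for 1 of 16 mitochondrial synthetases. Its median log2 difference from the other control libraries was -0.51 over the cytosolic members, 0.12 over the mitochondrial members and 0.02 over all tested genes. This library also had the highest share of counts from the mitochondrial genome, 13.3%, in a range that began at 5.55%. The part of this in the synthetase levels was not tested. Without control replicate 1 *Wars* was still called in PD-L1high against control cells (log2 fold change 0.59, adjusted p 0.0247 in edgeR's quasi-likelihood test), whereas *Kars*, as given above, was not. Control libraries enter the fit of PD-L1high against PD-L1low cells through the replicate block and the shared estimate of spread, and without this library *Wars* gave 0.71 there (adjusted p 0.00503).

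Levels can be compared between genes only per transcript length, in TPM, which corrects for transcript length and library total. Mean TPM over the 11 libraries ran from 9.96 (*Farsa*) to 140 (*Gars*) for cytosolic members, with a median of 46.8. For mitochondrial members it ran from 1.10 (*Mars2*) to 213 (*Lars2*), with a median of 8.43, and without *Lars2* the highest was 19.4 (*Rars2*). After *Gars* came *Sars* with 119 TPM, *Nars* with 111, *Eprs* with 92.3 and *Wars* with 75.3, against 2.78 for *Wars2*. The ranges of these neighbours over libraries overlapped: *Gars* spanned 81.4 to 164 TPM, *Sars* 63.3 to 149, *Nars* 53.7 to 142, *Eprs* 63.9 to 109 and *Wars* 39.1 to 135.

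**Figure D4:**
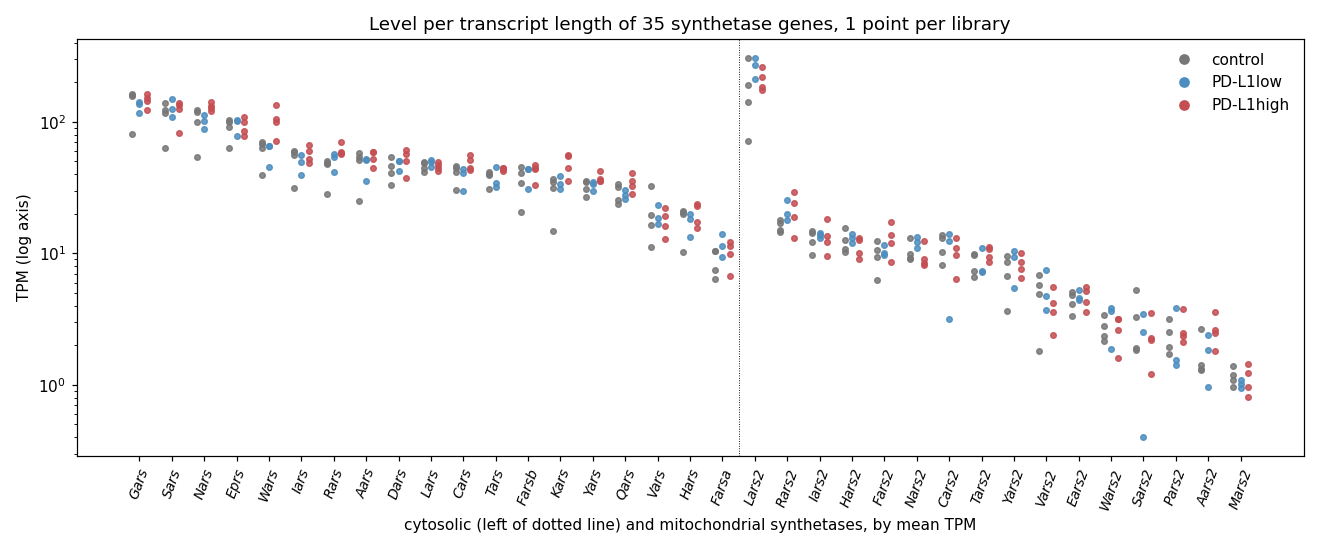
TPM of the 35 synthetases on a log axis, 1 point per library coloured by group, ordered by mean TPM within the cytosolic and the mitochondrial genes. Lars2, with a mean of 213 TPM, stands far above the other mitochondrial genes, and Wars ranks 5 of the 19 cytosolic genes with its PD-L1high libraries at its top.

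A ratio within each library does not depend on how libraries are scaled to each other. *Wars* TPM over the geometric mean TPM of the 18 other cytosolic synthetases was, on the log2 scale, 0.51, 0.45, 0.54 and 0.64 in control replicates 1 to 4. It was 0.66, 0.48 and 0.16 in PD-L1low replicates 2 to 4, and 1.01, 1.38, 1.10 and 0.82 in PD-L1high replicates 1 to 4. All 4 PD-L1high values lay above all 7 others, and the PD-L1low values fell on either side of the control values. The median ratio was 1.44 in control, 1.40 in PD-L1low and 2.07 in PD-L1high cells. Control replicate 1, low in most cytosolic synthetases, was inside the range of the other control libraries on this ratio. *Wars* ranked 5 or 6 of 19 in TPM in control libraries, 5, 5 and 8 in PD-L1low libraries and 5, 2, 4 and 5 in PD-L1high libraries.

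For *Kars*, over the geometric mean of the 17 cytosolic synthetases other than itself and *Wars*, the same log2 ratio was -0.95, -0.57, -0.43 and -0.32 in control cells. It was -0.34, -0.29 and -0.41 in PD-L1low cells and 0.12, 0.08, -0.07 and -0.20 in PD-L1high cells. Here too all PD-L1high libraries lay above all others. Unlike that of *Wars*, the ratio of *Kars* in control replicate 1 was the lowest of the 11 libraries. No test was made on these ratios.

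**Figure D5:**
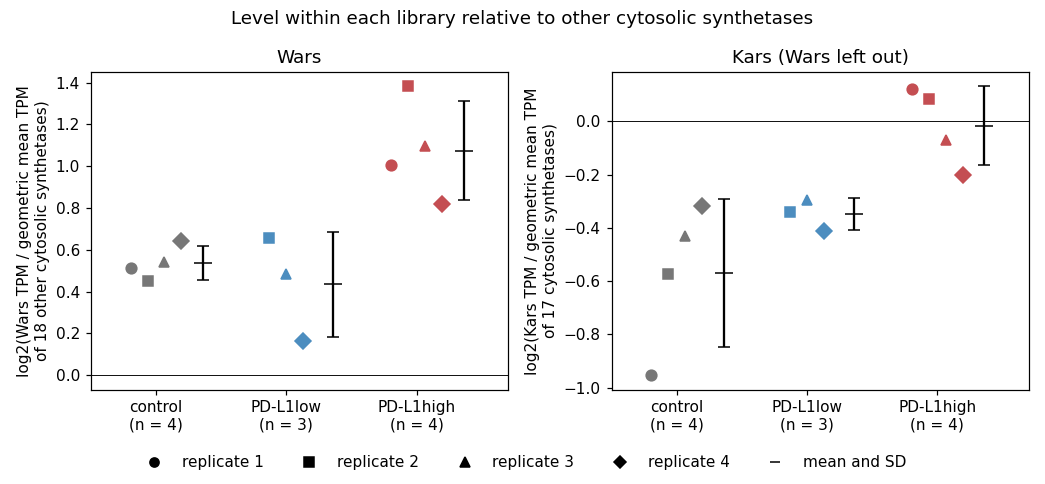
Log2 ratio, within each library, of Wars TPM to the geometric mean TPM of 18 other cytosolic synthetases (left) and of Kars TPM to that of 17 (right), with group mean and SD. PD-L1high libraries span 0.82 to 1.38 for Wars and -0.20 to 0.12 for Kars, above every control and PD-L1low library.

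Promoter sequence was searched for 26 of the 35 members, as RefSeq windows of 300 bases on GRCm38.p6, from 250 before to 50 after the transcription start. No window was searched for *Wars*, *Pars2*, *Rars*, *Hars*, *Lars*, *Vars*, *Nars*, *Cars* and *Hars2*. Windows on the chromosome that carries *Hars*, *Lars*, *Nars* and *Hars2* were left out of the search and of its background. Each window was searched on both strands for the IFNγ-activated element GAS (TTCNNNGAA), the interferon-stimulated element ISRE and an ATF4-type element (TGATGNAA). GAS letters stood in 3 of the 26 members (*Kars*, *Aars* and *Nars2*), against 8.30% of 32851 windows. ISRE letters stood in 1 (*Qars*), against 3.44%, and the ATF4-type letters in 5 (*Aars*, *Gars*, *Iars*, *Tars* and *Yars*), against 3.97%. These are matches of letters and not shown binding sites. The windows of *Kars*, the called member with a sequence, of *Qars*, which holds the ISRE letters, and of *Aars* and *Gars*, which hold ATF4-type letters, are shown 5′ to 3′ on the strand of the gene, with matched letters in capitals. In *Kars* the GAS match starts 9 bases before the transcription start.
Kars, chr8:112011305-112011604, minus strand: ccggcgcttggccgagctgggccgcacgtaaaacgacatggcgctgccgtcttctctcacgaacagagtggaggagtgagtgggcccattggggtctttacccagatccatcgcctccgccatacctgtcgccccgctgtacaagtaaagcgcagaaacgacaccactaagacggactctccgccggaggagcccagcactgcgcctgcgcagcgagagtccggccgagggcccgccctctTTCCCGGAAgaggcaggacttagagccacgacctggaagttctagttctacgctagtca
Qars, chr9:108507755-108508054, plus strand: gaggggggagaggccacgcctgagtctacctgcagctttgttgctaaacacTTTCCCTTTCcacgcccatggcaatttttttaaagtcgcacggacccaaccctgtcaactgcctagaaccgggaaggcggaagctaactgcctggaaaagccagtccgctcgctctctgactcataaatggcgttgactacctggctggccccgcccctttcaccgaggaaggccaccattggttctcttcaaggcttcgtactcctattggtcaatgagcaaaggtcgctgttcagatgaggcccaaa
Aars, chr8:111033592-111033891, plus strand: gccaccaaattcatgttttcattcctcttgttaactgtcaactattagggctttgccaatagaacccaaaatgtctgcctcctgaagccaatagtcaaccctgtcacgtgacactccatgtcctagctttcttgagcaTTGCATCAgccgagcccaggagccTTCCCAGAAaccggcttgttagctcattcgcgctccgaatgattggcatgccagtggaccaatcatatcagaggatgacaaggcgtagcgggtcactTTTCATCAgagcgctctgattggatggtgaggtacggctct
Gars, chr6:55037751-55038050, plus strand: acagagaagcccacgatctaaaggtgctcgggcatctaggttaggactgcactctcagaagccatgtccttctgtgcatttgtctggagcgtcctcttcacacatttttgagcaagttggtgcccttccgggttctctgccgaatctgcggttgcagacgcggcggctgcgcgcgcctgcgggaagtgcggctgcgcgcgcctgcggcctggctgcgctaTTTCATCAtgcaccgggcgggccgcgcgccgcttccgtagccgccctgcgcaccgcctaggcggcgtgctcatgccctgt

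Of these 4, only *Kars* was called in a comparison. *Qars* had 25.1 to 32.3 CPM in control cells, 26.2 to 27.6 in PD-L1low cells and 25.0 to 34.7 in PD-L1high cells, with a log2 fold change of 0.15 against control (adjusted p 0.847). *Aars*, for alanine, had 150, 256, 263 and 255 CPM in control cells, 217 to 252 in PD-L1low cells and 248 to 277 in PD-L1high cells, with a log2 fold change of 0.22 (adjusted p 0.731). The gene that starts next to *Kars* on the opposite strand, *Terf2ip*, a telomere protein gene singled out here after its values were seen, had 24.0 to 28.6 CPM in control cells and 24.4 to 33.2 in PD-L1high cells, with a log2 fold change of 0.11 (adjusted p 0.881).

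*Wars* (ENSMUSG00000021266) lies on chr12:108860030-108894174, minus strand, in GRCm38. Of the nearest protein-coding genes, *Slc25a29*, *Slc25a47* and *Wdr25* gave log2 fold changes of -0.39, -0.57 and 0.04 in PD-L1high against control cells, with adjusted p of 0.752, 0.915 and 0.980, and *Begain* was too low to be tested. None of the 50-base stretches of *Wars* transcripts was found in a transcript of another gene. Among the other members, *Aars* shared 13.5% of its stretches with *Exosc6* on the same strand, and *Iars* 7.15% with *Gm4849*. The exons of *Aars* and *Exosc6* overlap by 1326 bases. Reads from shared stretches can be assigned to either gene, so the levels of *Aars* and *Iars* are uncertain to that extent. No other member shared more than 5% on the same strand. On the opposite strand 5 members did: *Iars2* with 22.7% (*Rab3gap2* and another gene), *Fars2* with 8.85%, *Farsb* with 7.28%, *Vars2* with 6.45% and *Hars* with 5.95%. The strand setting of the counting is not given in the sources used here, so the levels of these 5 genes are uncertain. *Kars* shared 4 of 4654 stretches with other genes on its strand. *Lars2* shared 22 of 11217, with *Gm15564* among the other genes. How far reads from such stretches add to the high level of *Lars2* was not tested.

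The genes whose profile over the 11 libraries was most like that of *Wars* were *Lgals3bp*, *Arel1*, *Creb3*, *Nub1* and *Sppl2a*, by the root mean square difference of gene-centred log2 CPM (0.078, 0.099, 0.135, 0.153 and 0.159). *Kars* was the nearest synthetase with 0.184, at rank 19 of 16251 genes, and *Nars* followed at rank 211. *Lgals3bp*, a secreted galectin-binding glycoprotein, had 286 to 382 CPM in control cells, 292 to 374 in PD-L1low cells and 514 to 631 in PD-L1high cells.

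The list for the amino acid response holds *Atf4*, its known targets and kinases that act before it. Against 0.941% and 0.64% of all genes, 1 of its 22 tested genes was called higher in PD-L1high against control and against PD-L1low cells. This was *Eif2ak2*, the double-stranded RNA kinase PKR, which acts upstream of ATF4 and is a known interferon target, with 41.1 to 62.3 CPM in control cells, 53.6 to 60.8 in PD-L1low cells and 91.2 to 101 in PD-L1high cells, and a log2 fold change of 1.01 against control and 0.69 against PD-L1low cells (adjusted p 0.000262 and 0.0285 in edgeR's quasi-likelihood test). *Atf4* had 212 to 346 CPM in control cells, 274 to 327 in PD-L1low cells and 283 to 362 in PD-L1high cells, with a log2 fold change of 0.12 (adjusted p 0.832). *Asns*, the asparagine synthetase that ATF4 induces, gave 0.25 (adjusted p 0.658). No known target of ATF4 in the list passed the adjusted test. In PD-L1high against PD-L1low cells 7 of the 22 had an unadjusted p under 0.05, against 8.52% of all genes, among them *Psat1* and *Psph* of serine synthesis at 0.54 and 0.67. In PD-L1low against control cells 4 of the 22 did, against 2.1% of all genes (*Chac1*, *Psat1*, *Psph* and *Eif2ak2*), and none was called by edgeR, DESeq2 or limma-voom. *Psat1* and *Psph* stood at -0.34 and -0.53 in that comparison and at 0.21 and 0.14 in PD-L1high against control cells. Of the 22 genes 5 lay above zero in PD-L1low against control cells, with a median of -0.10.

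Of 11 genes of tryptophan use and transport, 6 could be tested and edgeR called 0 in each comparison, as did DESeq2 and limma-voom, with 0 at an unadjusted p under 0.05. *Ido1* was at most 0.236 CPM in any library and *Ido2* was at 0 in all. *Slc7a5* and *Slc3a2*, which form the transporter that carries tryptophan into cells, had log2 fold changes of 0.03 and 0.02 in PD-L1high against control cells (adjusted p 0.976 and 0.984). The 3 genes of the mitochondrial glutamyl-tRNA amidotransferase and 10 of transfer RNA editing and related steps likewise had 0 called in each comparison with any of the 3 tools. Before adjustment, edgeR had a p under 0.05 for 1 editing gene in PD-L1low against control cells (*Dtd1*) and 3 in PD-L1high against PD-L1low cells (*Dtd1*, *Pstk* and *Sepsecs*), and 0 amidotransferase genes. Of all tested genes 2.1% and 8.52% had such a p in these comparisons, and 7.65% in PD-L1high against control cells. Of 12 translation factors edgeR called 0, with 1 at an unadjusted p under 0.05 in each comparison. DESeq2 called 1, *Eef1a2*, in PD-L1low against control and in PD-L1high against PD-L1low cells, against 0.596% and 1.3% of all genes. *Eef1a2* was at 0.0739 to 0.248 CPM in PD-L1low cells.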

How the data were processed

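RNA was taken from sorted beta cells (5 ng per library, Ovation Solo, random primers, strand-specific, ribosomal RNA depleted, 75-base paired reads). The authors aligned reads with STAR 2.5.2b to GRCm38.p6 with GENCODE M23 and deposited RSEM expected counts and TPM per gene for 11 libraries. The RSEM version and strand setting are not given in the sources used here, so reads of genes overlapping on opposite strands may not be told apart.

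Expected counts were rounded, which changed no library total by more than 0.000388%. The test was edgeR 4.0.16 (R 4.3.3) robust quasi-likelihood with TMM scaling, filterByExpr with a minimum count of 10, condition plus replicate number as a block, and Benjamini-Hochberg adjustment over 16252 genes at 0.05, on all 3 groups. The study's methods name a batch term, taken here to be the replicate number. CPM are TMM-scaled and log2 CPM use a prior count of 2. The alternatives were other normalizations and filters, DESeq2 1.42.0, limma-voom (limma 3.58.1), no replicate block, the compared groups alone and leaving out each library. The code was tested on simulated data. The members and gene lists were chosen with earlier results of these data known. Values in every library are given for *Wars*, *Wars2* and each called member, for the 2 largest positive and 2 largest negative fold changes of each comparison (where the higher group averaged 10 CPM or more), and for the 3 highest and 2 lowest mean TPM. Also named were up to 4 called genes of a list, the 5 profiles most like *Wars* and its nearest coding genes. Promoter windows come from RefSeq, overlaps and shared stretches from GENCODE M21. Intervals of fold changes are those of the model.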

Additional observations from a re-analysis of the deposited data

Results flagged for a closer look

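In 4 of 70 groups of 4 libraries, 1 library stood apart from the other 3 by the gap between it and its nearest neighbour over the range of the group, and chance flags about 1 in 20 groups. *Aars* was lowest in control replicate 1, at 150 CPM against 255 to 263 in the other control libraries. *Iars2* was lowest in PD-L1high replicate 4, at 47.8 CPM against 58.3 to 59.4. *Vars2* was highest in PD-L1high replicate 4, at 11.01 CPM against 7.27 to 7.78. *Fars2* was also highest there, at 18.5 CPM against 13.004 to 13.9. Groups of 3 libraries were not examined in this way.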

How the results depend on the processing

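The number of synthetases called in PD-L1high against control cells was 2, and 1 (*Wars*) with no replicate block or with only the 2 groups compared. Leaving out single libraries gave 1 to 2. In PD-L1low against control cells it was 0, and 1 (*Lars2*) with no filter on low counts. The cause was not tested. In PD-L1high against PD-L1low cells it was 1, and 0 to 1 when a library was left out, with 0 without PD-L1low replicate 2, PD-L1low replicate 4 or PD-L1high replicate 2. The log2 fold change of *Wars* there was 0.71 to 0.86 without single libraries, and 0.74, 0.72 and 0.73 without these. In PD-L1low against control cells that of *Wars* ran from -0.16 to 0.0675, the latter without control replicate 4, and that of *Cars2* from -0.62 to 0.11, turning positive without PD-L1low replicate 4. With no replicate block *Wars* gave 0.69 against control (adjusted p 0.0163), 0.69 against PD-L1low cells (0.0428) and -0.01 in PD-L1low against control cells, and *Kars* 0.64 against control (0.0827).

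Deviations of libraries with the same number correlated at 0.008 to 0.408 between control and PD-L1high, -0.329 to 0.282 between control and PD-L1low and 0.022 to 0.144 between PD-L1low and PD-L1high cells. The deposited names give same-numbered libraries a common experiment label, so the number is kept as the block, although not every pair correlated above 0.1. Libraries with different numbers correlated at -0.352 to 0.334 between groups, so these correlations do not by themselves show that the number groups the libraries. Depth was lowest for *Sars2*, with 12 counts in PD-L1low replicate 4.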
